A study of Homo sapiens with 7 samples.

Results

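The MYC, MAX and MXD network was described through its 10 genes: the activators MYC, MYCN and MYCL, their partner MAX, and the antagonists MXD1, MXD3, MXD4, MXI1, MNT and MGA. They were chosen by name, as MYCN with its partners and antagonists, with earlier results of these data known. All 10 were found among the 19978 genes of the table, and all 10 were among the 14863 genes abundant enough to be tested. The samples were poly(A) RNA of HEK-293, an established human embryonic kidney cell line, after 48 h of treatment. The control was medium of pH 7.4 with DMSO (2 samples), acidosis was acidified medium of pH 6.6 with DMSO (3 samples), and the SRPIN340 group was medium of pH 7.4 with 10 µM SRPIN340, an inhibitor of the kinases that phosphorylate SR splicing factors (2 samples). The vehicle and the cell line were therefore shared by all groups, and the results describe 1 line. The study asked how prolonged acidification and loss of SR protein kinase activity change RNA in the cell, and MYCN was among the genes it measured again by quantitative PCR.

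MYC, MYCN and MYCL are transcription factors that bind DNA only as a pair with MAX, at the E-box and related sites, and drive genes of growth, ribosome production and metabolism. MXD1, MXD3, MXD4, MXI1 and MNT pair with the same MAX, bind the same sites and recruit SIN3 and histone deacetylases to silence them, while MGA joins MAX to a Polycomb complex. Cells that divide usually hold more of the MYC side, and cells that stop dividing or differentiate more of the MXD side.

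Values are given as CPM, counts relative to the library total after TMM scaling between libraries in edgeR, and changes as log2 fold changes of the edgeR quasi-likelihood fit with their standard error (SE) or 95% interval. A gene passed the test when its p-value, adjusted over all tested genes by the Benjamini-Hochberg method (BH), was under 0.05. It was called when its log2 fold change was also over 1 in size. Totals ran from 21788457 to 24110460 counts at pH 7.4 and from 13615816 to 21370143 in acidosis. TMM factors were 1.17 to 1.21 at pH 7.4 and 0.782 to 0.800 in acidosis. Scaling on the total alone took the median over all genes in acidosis from -0.052 to -0.63 (log2), so changes are relative to the typical gene. Fewer cells with a transcript and less of it per cell cannot be told apart in bulk RNA.

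Of the 6 HEK-293 markers all were detected. Their summed level was 1318 to 1345 CPM in control, 1300 to 1369 CPM with SRPIN340 and 3331 to 3361 CPM in acidosis, where 3 passed higher and 2 lower. Most of that sum was VIM, and the other 5 summed to 453 to 476 CPM in control, 464 to 477 CPM with SRPIN340 and 615 to 656 CPM in acidosis. Of its kidney lineage factors, PAX2 was at 5.31 to 7.06 CPM at pH 7.4 and at 1.19 to 2.48 CPM in acidosis, while LHX1 did not pass, at 15.4 ± 0.281 CPM in control (SD, n = 2) and 16.5 ± 1.83 CPM in acidosis (SD, n = 3). Among the neuroblastoma markers, TH and DBH were at 0 in all samples, PHOX2A was at 0.0860 CPM or less, and HAND2 was at 7.27 to 7.46 CPM in control, 7.70 to 8.84 CPM with SRPIN340 and 3.01 to 4.87 CPM in acidosis. The 4 fibroblast markers summed to 38.8 CPM in both control samples, to 39.7 and 50.8 CPM with SRPIN340 and to 80.5 to 92.7 CPM in acidosis, with COL1A2 and DCN at 0.332 CPM or less. The 3 leukocyte markers summed to 0.721 to 0.948 CPM in control, 0.590 to 0.721 CPM with SRPIN340 and 1.93 to 3.18 CPM in acidosis, with CD3E at 0. The part of these shifts in the results on the network was not tested.

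The upstream sequences of MYCN and MXD1 are shown because these genes had the largest change in each direction in acidosis. RefSeq promoters of the GRCh38.p14 build (250 bases before to 50 after a start) were at hand for 9 of the 10 genes, with 14 start sites in all. None was matched for MYC, which was not searched. The 250 bases before each start, 5′ to 3′ on the gene's strand, are given with the matched letters of an E2F site in capitals, E2F being the factor family of the cell cycle that is known to act on the MYCN promoter. MYCN lies at chr2:15940300-15940549 on the plus strand, and MXD1 at chr2:69914859-69915108 on the plus strand.
MYCN: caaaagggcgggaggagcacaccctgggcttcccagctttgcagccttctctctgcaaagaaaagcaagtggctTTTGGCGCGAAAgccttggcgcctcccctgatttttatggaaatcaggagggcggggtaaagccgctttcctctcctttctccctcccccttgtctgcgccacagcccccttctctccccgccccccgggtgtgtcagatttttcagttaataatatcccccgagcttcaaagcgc
MXD1: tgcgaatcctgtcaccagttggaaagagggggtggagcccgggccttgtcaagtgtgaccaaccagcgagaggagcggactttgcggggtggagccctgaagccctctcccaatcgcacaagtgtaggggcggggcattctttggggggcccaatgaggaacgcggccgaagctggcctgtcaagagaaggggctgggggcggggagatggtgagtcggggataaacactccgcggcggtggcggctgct
The GC content of these stretches was 57.2% for MYCN and 64.4% for MXD1. Both strands were searched for the E-box CACGTG, the site of MYC-MAX and MXD-MAX pairs, and for the E2F letters TTTGGCGC, TTTCGCGC, TTTCCCGC and TTTGCCGC. MYCN held 2 E2F matches that overlap on opposite strands, starting 176 and 172 bases before its start. Neither motif was found in the MXD1 promoter, which says only that these letters are not in this window.

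Among the other network promoters, 3 held a match. MXD4 had an E-box 238 bases and MNT an E-box 193 bases before the start, and MGA had an E2F match 65 bases before the last of its 3 starts. The windows of 30 bases, with the match in capitals, are shown because they are the sites where the network's own pairs or E2F could be looked for. They lie at chr4:2262330-2262359 (minus strand), chr17:2401236-2401265 (minus strand) and chr15:41660671-41660700 (plus strand).
MXD4: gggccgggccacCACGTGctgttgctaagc
MNT: ccctgcccgggcCACGTGtgcgcgcgccgg
MGA: gcagggccgccTTTGGCGCgcccctgtggt
Over all 35116 promoters of the table, 7.26% held the E-box and 3.31% an E2F match, beside 2 of the 14 network promoters for each motif. Of the genes with an E-box, MNT rose in acidosis and MXD4 did not pass the test, as given below. Both genes with an E2F match, MYCN and MGA, fell. With neither motif in their windows, MAX also fell, MXD1 and MXI1 rose, and MYCL and MXD3 did not pass the test. A relation of these motifs to the changes was not tested.

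The quantitative PCR primers of the study for MYCN are shown since they fix which stretch of the transcript was read apart from sequencing.
Forward: GCCACATAAGGGGTTTGCCA
Reverse: CCGCAAAAGCCACCTCTCAT
In GRCh38 the forward primer lies at chr2:15946453-15946472 and the reverse primer at chr2:15946542-15946561. Both fall in exon 3 of 3, in the 3′ UTR, with a product of 109 bases. The estimated counts sum all MYCN transcripts, so they are not limited to this stretch. In its text the study called MYCN slightly repressed in acidosis by this PCR, which was normalized to TBP, and gave no fold. The PCR is therefore not used here for the size of the fall given below.

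In acidosis genes on all 3 sides of the network passed the test, at a share near that of all tested genes. MYC rose 3.82-fold while MYCN fell, and MAX fell. Of the 6 antagonists 3 rose, MXD1 by 7.53-fold, while MGA fell. Against control, 4 of the 10 genes were called higher (MYC, MXD1, MXI1 and MNT) and 1 was called lower (MYCN), where 14.4% of all tested genes were called higher and 19.1% lower. At adjusted p alone 7 of the 10 passed, beside 66.7% of all tested genes, and in 7 of the 10 the acidosis and control samples did not overlap, beside 76.5% of all. The shares at adjusted p and without overlap are near those of all genes. The median log2 fold change of the 10 was 0.34 against -0.052 over all genes, and the median size of change was 0.90 against 0.74. With total count scaling 3 of the 10 were called higher and 3 lower. MXI1 was then under the fold limit, and MAX and MGA were past it.

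**Figure D1:**
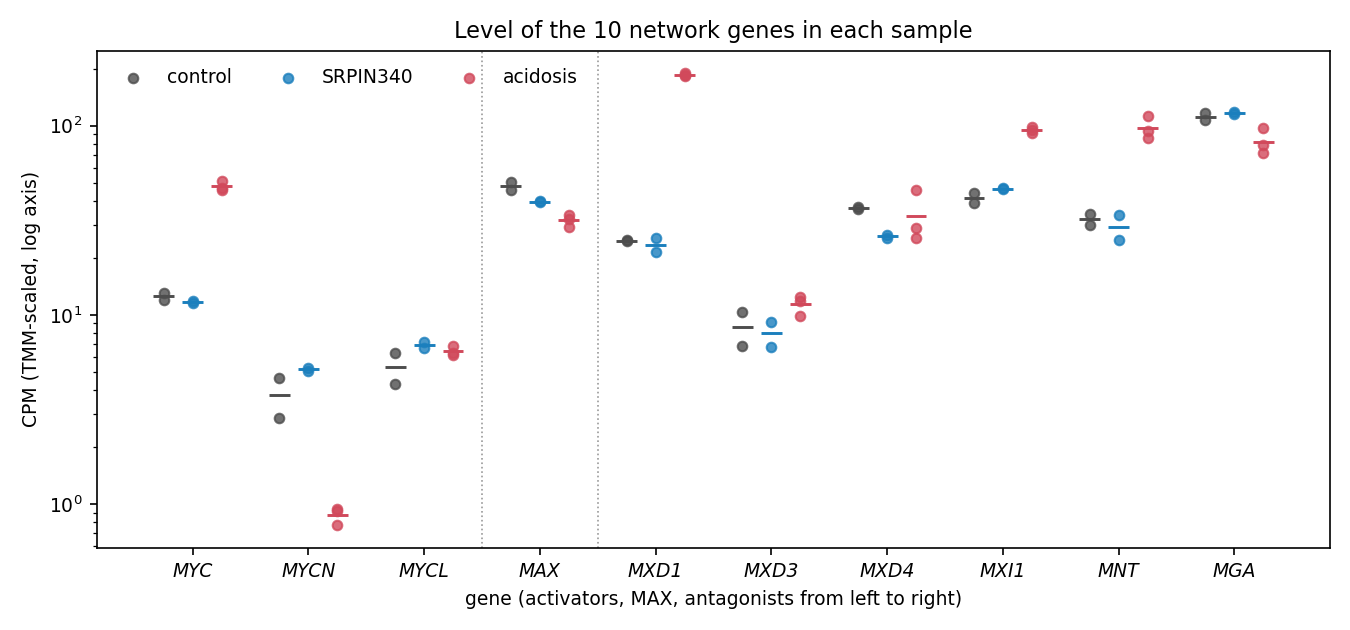
Level of each network gene in CPM (log axis) in every control, SRPIN340 and acidosis sample, with short lines at group means and dotted lines between activators, MAX and antagonists. The 3 acidosis samples of MXD1 sit between 184 and 189 CPM, above all pH 7.4 samples, and those of MYCN between 0.772 and 0.946 CPM, below all of them.

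MYC (ENSG00000136997.21, chr8:127735434-127742951, plus strand) is the broadly expressed activator. It was at 12.0 and 13.1 CPM in control, 11.6 and 11.8 CPM with SRPIN340, and 47.1, 50.9 and 45.7 CPM in acidosis. The acidosis samples lay well above the rest and did not overlap them. Its log2 fold change in acidosis was 1.93 (SE 0.117, BH-adjusted p = 4.93e-07, edgeR), and 96.1% of tested genes had a lower one.

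MYCN (ENSG00000134323.13, chr2:15940550-15947007, plus strand) is the family member best known from neural and embryonic kidney tissue. Its estimated counts were 129 and 81.3 in control, 142 and 133 with SRPIN340, and 12.6, 10.4 and 11.5 in acidosis. In CPM these were 4.65 and 2.84, 5.23 and 5.05, and 0.772, 0.918 and 0.946. Acidosis samples were all lower than the pH 7.4 samples, and the control samples differed from each other more than the SRPIN340 samples did. MYCN fell by 2.10 on the log2 scale in acidosis (95% interval -2.83 to -1.36, BH-adjusted p = 0.000301, edgeR). Its interval was the widest of the 10, at counts of 10.4 to 12.6 in acidosis. With each sample left out in turn the value ran from -2.43 to -1.70 and kept its call, and 5.56% of tested genes had a lower fold change.

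MYCL (ENSG00000116990.11, chr1:39895428-39902256, minus strand) is the least studied of the activators. It was at 4.32 and 6.25 CPM in control, 7.22 and 6.64 CPM with SRPIN340, and 6.83, 6.15 and 6.28 CPM in acidosis. The acidosis samples overlapped both other groups. Both SRPIN340 samples lay above both control samples, but this difference did not pass (BH-adjusted p = 0.422, edgeR). The log2 fold change in acidosis was 0.28 (95% interval -0.20 to 0.76, BH-adjusted p = 0.269, edgeR), which spans both directions. It was -0.29 with total count scaling and did not pass, and relative to TBP it was 0.63 and passed (adjusted p = 0.04).

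The activators therefore differed in acidosis, MYC higher, MYCN lower and MYCL without a difference that passed. The ratio of MYC to MYCN per kilobase of canonical transcript, which does not depend on the scaling between libraries, was 1.81 and 3.23 in control, 1.56 and 1.65 with SRPIN340, and 42.8, 38.9 and 34.0 in acidosis. Of the sum of the 3 activators per kilobase, MYC made up 53.4% ± 2.35 (SD, n = 2) in control and 85.6% ± 0.940 (SD, n = 3) in acidosis. The share of MYCN was 22.8% ± 8.11 (SD, n = 2) in control and 2.24% ± 0.262 (SD, n = 3) in acidosis, and that of MYCL 23.8% ± 5.76 (SD, n = 2) and 12.1% ± 0.987 (SD, n = 3). MYCL held the larger share of these in acidosis, and in control their samples overlapped.

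MAX (ENSG00000125952.20, chr14:65006174-65102695, minus strand) is the shared partner that activators and antagonists need to bind DNA. It was at 45.6 and 50.2 CPM in control, 39.4 and 39.9 CPM with SRPIN340, and 33.6, 29.1 and 32.2 CPM in acidosis. The 3 groups did not overlap, though the difference of SRPIN340 from control did not pass (BH-adjusted p = 0.237, edgeR). MAX fell by 0.60 on the log2 scale in acidosis (95% interval -0.83 to -0.37, BH-adjusted p = 0.000558, edgeR), short of the fold limit of a call. Relative to TBP, a basal transcription factor that itself fell by 0.36 (BH-adjusted p = 0.0225, edgeR), the value was -0.23 and did not pass (adjusted p = 0.198). With total count scaling it was -1.17 (adjusted p = 4.23e-06), past the fold limit.

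MXD1 (ENSG00000059728.11, chr2:69897688-69942945, plus strand), also called MAD, is the antagonist known to appear as cells differentiate. It was at 24.9 and 24.5 CPM in control, 21.5 and 25.6 CPM with SRPIN340, and 184, 185 and 189 CPM in acidosis. Its replicates were close in control and acidosis and less close with SRPIN340, and acidosis stood apart. The log2 fold change was 2.91 (SE 0.0972, BH-adjusted p = 1.73e-08, edgeR), higher than that of 98.3% of tested genes and the largest rise of the 10 in these libraries. The gene body overlaps SNRNP27 on the same strand, but no base of its canonical exons lies in an exon of another coding gene. The same held for the canonical exons of the other network genes.

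MXI1 (ENSG00000119950.21, chr10:110207605-110287365, plus strand) is the antagonist also called MAD2. It was at 43.8 and 39.0 CPM in control, 46.0 and 46.7 CPM with SRPIN340, and 91.9, 95.2 and 98.1 CPM in acidosis. All acidosis samples were above the others. MXI1 rose by 1.20 on the log2 scale (SE 0.0892, BH-adjusted p = 1.9e-06, edgeR). With total count scaling the change was 0.62 and passed, but was under the fold limit.

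MNT (ENSG00000070444.15, chr17:2384073-2401104, minus strand) is the antagonist that is present in dividing and resting cells alike. It was at 34.2 and 29.7 CPM in control, 33.5 and 24.7 CPM with SRPIN340, and 113, 93.2 and 85.8 CPM in acidosis. The acidosis samples were spread more widely than those of MXD1 and MXI1, yet lay above all others. Its log2 fold change was 1.61 (SE 0.162, BH-adjusted p = 1.47e-05, edgeR), or 3.05-fold.

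MGA (ENSG00000174197.19, chr15:41621134-41773081, plus strand) is the largest of these proteins and the scaffold of the Polycomb complex PRC1.6. It was at 107 and 117 CPM in control, 115 and 118 CPM with SRPIN340, and 71.5, 96.7 and 78.9 CPM in acidosis. The acidosis samples were the lowest, with replicate 2 nearer to control than the others. MGA fell by 0.44 on the log2 scale (95% interval -0.71 to -0.18, BH-adjusted p = 0.00734, edgeR), and relative to TBP the value was -0.081 (adjusted p = 0.651). With total count scaling it was -1.02 (adjusted p = 4.22e-05), past the fold limit.

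MXD3 (ENSG00000213347.11, chr5:177301461-177312757, minus strand) is the MXD member known for expression in S phase. It was at 6.81 and 10.4 CPM in control, 9.14 and 6.79 CPM with SRPIN340, and 12.4, 9.92 and 11.8 CPM in acidosis. Control and acidosis overlapped. The log2 fold change of 0.40 did not pass (95% interval -0.10 to 0.91, BH-adjusted p = 0.141, edgeR), but without control replicate 2 it was 0.72 (adjusted p = 0.0436), relative to TBP it was 0.76 (adjusted p = 0.0131), and with total count scaling it was -0.17.

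MXD4 (ENSG00000123933.17, chr4:2247432-2262109, minus strand) is a further MXD member tied to resting and differentiated cells. It was at 36.4 and 36.9 CPM in control, 26.6 and 25.5 CPM with SRPIN340, and 45.4, 25.4 and 28.8 CPM in acidosis. Replicate 1 of acidosis lay above control and the others below it. The log2 fold change in acidosis was -0.13 (95% interval -0.60 to 0.33, BH-adjusted p = 0.596, edgeR). Without acidosis replicate 1 it was -0.43 (adjusted p = 0.0104), and without acidosis replicate 2 it was 0.030. With total count scaling it was -0.71 (adjusted p = 0.011), so the value rests on the samples and the scaling used.

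**Figure D2:**
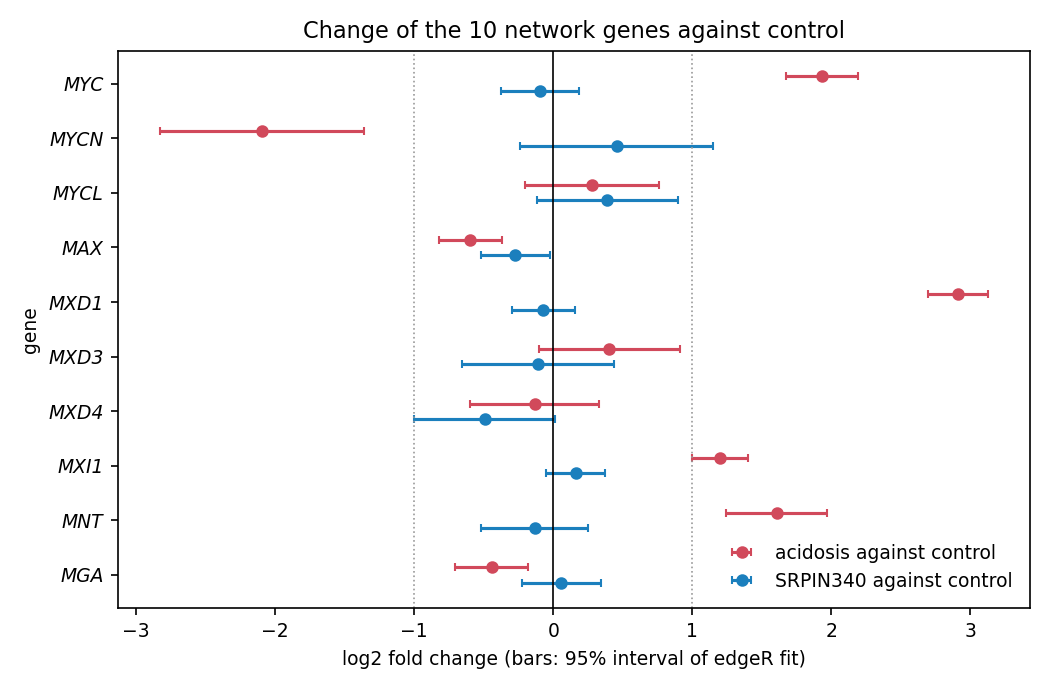
Log2 fold change of each network gene in acidosis and with SRPIN340, each against the same control samples, with 95% intervals of the edgeR fit and dotted lines at the fold limit of a call. In acidosis MYC, MXD1, MXI1 and MNT lie above 1 and MYCN at -2.10, while with SRPIN340 the values run from -0.49 for MXD4 to 0.46 for MYCN.

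With SRPIN340 none of the 10 genes passed in the edgeR fit against control (0 called, 0 at adjusted p), where 0.323% of all tested genes were called and 2.3% passed. DESeq2 also called 0. One of the 10 had an unadjusted p under 0.05, MAX, whose log2 fold change was -0.27 (95% interval -0.52 to -0.03, BH-adjusted p = 0.237, edgeR). The median log2 fold change of the 10 was -0.083 against 0.0024 over all genes, and the median size 0.15 against 0.18. The control samples are those of the acidosis comparison.

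The intervals bound what could have been missed with 2 samples a group. For MYC the log2 fold change was -0.10 (95% interval -0.37 to 0.18, BH-adjusted p = 0.758, edgeR). For MXD1 it was -0.07 (95% interval -0.30 to 0.15, adjusted p = 0.78). For MYCN it was 0.46 (95% interval -0.24 to 1.15, adjusted p = 0.499), the widest of the 10 intervals. MXD4 had the lowest value, -0.49 (SE 0.225, BH-adjusted p = 0.294, edgeR), and its SRPIN340 samples lay below both control samples. Groups of 2 samples can lie apart without a change, and the share of all genes that did so with SRPIN340 was not counted. In a fit of control and SRPIN340 samples alone MXD4 passed at -0.50 (adjusted p = 0.0369). MYCL, MXD3, MXI1, MNT and MGA had values from -0.13 to 0.39, with adjusted p of 0.422 to 0.869.

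Acidosis was also set against SRPIN340, and the genes called against control were called in the same direction. MYC, MXD1, MXI1 and MNT were called higher in acidosis and MYCN lower, 5 of 10 beside 34.6% of all tested genes. The log2 fold changes were 2.03 for MYC, 2.98 for MXD1, 1.04 for MXI1, 1.74 for MNT and -2.55 for MYCN. MAX was -0.32 (BH-adjusted p = 0.0188, edgeR) and lost this without SRPIN340 replicate 1 or replicate 2 (adjusted p = 0.0761 and 0.0913). MGA was -0.50 (adjusted p = 0.00358), while MYCL, MXD3 and MXD4 did not pass (adjusted p = 0.667, 0.07 and 0.153). Without acidosis replicate 2, MXD3 at 0.60 and MXD4 at 0.52 passed in this comparison. With total count scaling MYCL passed at -0.72 (adjusted p = 0.0113). MXI1 was then 0.42, which passed but was under the fold limit, and MGA was -1.12, past the fold limit. The count of called genes was again 5, with MGA in place of MXI1. Relative to TBP, MXD3 at 0.96 and MXD4 at 0.79 passed, and MAX at 0.11 and MGA at -0.066 did not. These values share the acidosis samples with the comparison against control and are not independent of it.

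Levels of different genes were compared per kilobase of the canonical GENCODE transcript. This holds for counts that grow with transcript length. The option that made the deposited counts is not given in the sources used here, and if it had removed the length, undivided CPM would be the level to compare and the per kilobase order, shares and ratios between genes would not apply. Fold changes of a gene between groups do not use this division. In control MAX was highest at 23.8 CPM per kb, followed by MXI1 at 11.9, MXD4 at 9.47, MGA at 9.16, MXD3 at 8.06, MNT at 6.49, MXD1 at 4.45, MYC at 3.37, MYCL at 1.23 and 1.77 in its 2 samples, and MYCN at 1.43. The samples of MXD4 and MGA, MGA and MXD3, MXD3 and MNT, and MYCL and MYCN overlapped, so the order within these pairs is not set. With SRPIN340 the order began again with MAX at 19.7 and MXI1 at 13.4 CPM per kb and ended with MYC at 3.15, MYCL at 1.97 and MYCN at 1.97, the last pair overlapping. In acidosis MXD1 led at 33.5 CPM per kb, ahead of MXI1 at 27.4, MNT at 19.8, MAX at 15.7, MYC at 12.9, MXD3 at 10.6, MXD4 at 8.58, MGA at 6.76, MYCL at 1.82 and MYCN at 0.336. There only MXD3 with MXD4 and MXD4 with MGA overlapped among neighbours. This order depends on the length used, and other lengths were tried after the data were seen. With the longest transcript in place of the canonical one, MAX was first in control at 15.2 CPM per kb and below MYC in acidosis at 10.0. Undivided CPM put MGA first in control. MXD1 was first and MYCN last in acidosis under all 3 choices.

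As a share of the network's sum per kilobase, the activators made up 7.91% ± 0.183 (SD, n = 2) in control, 9.57% ± 0.117 (SD, n = 2) with SRPIN340 and 11.0% ± 0.734 (SD, n = 3) in acidosis. MAX made up 29.9% ± 0.843 (SD, n = 2), 26.6% ± 1.00 (SD, n = 2) and 11.4% ± 0.552 (SD, n = 3). The antagonists made up 62.2% ± 0.660 (SD, n = 2), 63.8% ± 1.12 (SD, n = 2) and 77.6% ± 0.309 (SD, n = 3). The differences between control and acidosis exceed these spreads, and no test was made of such sums. The level of the MAX share depends on the length, at 14.7% in control and 5.34% in acidosis for undivided CPM and 23.5% and 8.08% with the longest transcript. It was lower in acidosis under all 3. Of the single genes, MXD1 went from 5.59% to 24.4%, MYC from 4.22% to 9.38%, and MGA from 11.5% to 4.94%.

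The ratio of antagonists to activators per kilobase was 7.80 and 7.94 in control, 6.81 and 6.53 with SRPIN340, and 7.50, 6.57 and 7.25 in acidosis, so that both treated groups lay below control. Relative to MAX both sides were higher in acidosis: the activators were at 0.265 of MAX in control and 0.960 in acidosis, and the antagonists at 2.08 and 6.79. MXD1 alone was at 0.187 of MAX in control, 0.215 with SRPIN340 and 2.14 in acidosis. These are RNA levels, and the amounts of the proteins or of their pairs with MAX were not measured.

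**Figure D3:**
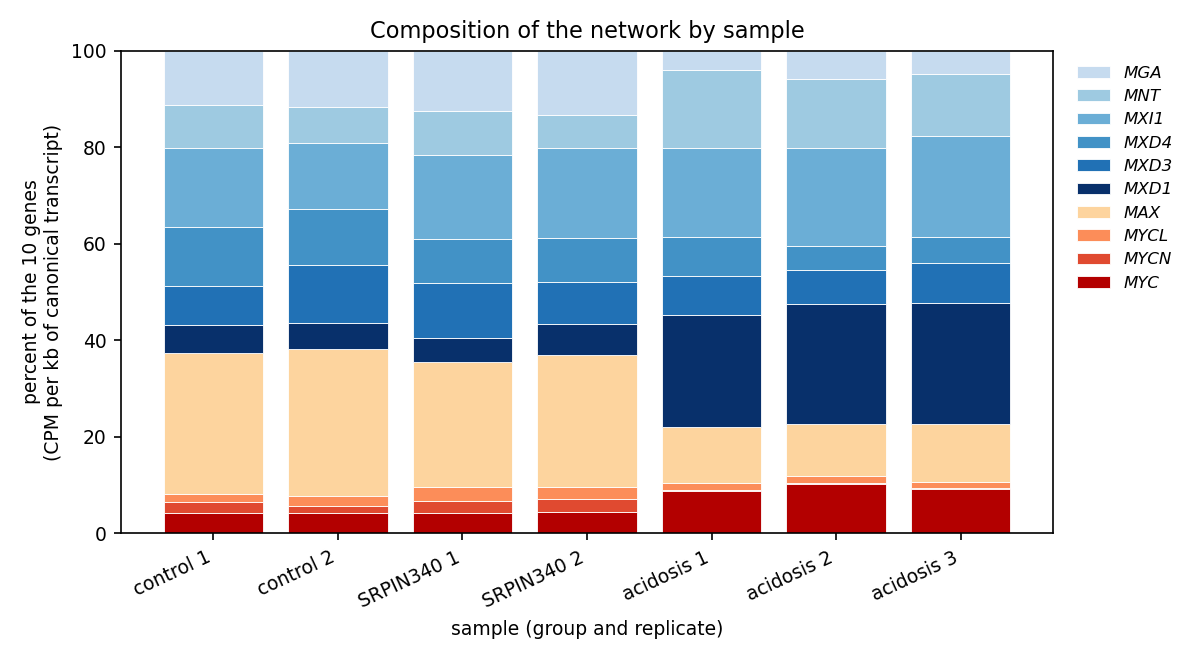
Share of each gene in the network's sum of CPM per kilobase of canonical transcript, in percent, for each sample as a stacked bar. MAX takes 29.3% and 30.5% in the control samples and 10.8% to 11.9% in the acidosis samples, where MXD1 takes 23.1% to 25.2%.

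The genes whose profile over the 7 samples was most like that of MYCN were sought among the 13460 tested genes that averaged 1 CPM or more. Likeness was the root mean square distance between log2 CPM centred on each gene's mean. The 5 nearest were DNAI3 at 0.111, ZNF480 at 0.139, RAB36 at 0.150, CEP126 at 0.162 and PTPN18 at 0.164. DNAI3 went from 4.29 ± 1.06 CPM in control to 0.958 ± 0.110 CPM in acidosis, and ZNF480 from 24.8 ± 5.13 to 6.89 ± 0.831 CPM (SD, n = 2 and 3). As with MYCN, control replicate 1 was above control replicate 2 in all 5, for example at 15.3 and 12.5 CPM for RAB36. Since the measure used these samples, this order is part of how the 5 were chosen. None of the network's other genes was among them, and the measure is a description of these samples.

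Cofactors and targets of the network were described by 7 lists of genes, written by hand with earlier results of these data known. Their counts are read beside the shares of all genes, 14.4% called higher and 19.1% called lower, and 66.7% passed at adjusted p alone. For the genes of the lists named as called in acidosis, SE ran from 0.0567 to 0.177 and the BH-adjusted p from 2.86e-10 to 0.000103 (edgeR). The MLX arm is the parallel network that senses glucose. Of its 3 genes 1 was called higher (0 with total count scaling), MLXIP, which went from 101 ± 2.55 CPM in control (SD, n = 2) to 243 ± 19.0 CPM in acidosis (SD, n = 3). The coactivators, which bring histone acetylation and transcription elongation to MYC sites, had 1 of 16 called higher and 1 lower (1 and 3 with total count scaling). CCNT1, the cyclin of the elongation kinase, rose by 2.25 on the log2 scale to 392 ± 25.4 CPM (SD, n = 3). EP300, a histone acetyltransferase, fell by 1.08 to 125 ± 8.74 CPM (SD, n = 3). At adjusted p alone 6 coactivators passed higher and 7 lower, with a median log2 fold change of -0.0026.

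Corepressors of the MXD proteins and MNT had 2 of 14 called higher and 3 lower, with a median of -0.16, and 1 higher and 6 lower with total count scaling. Among the higher ones ZBTB17, the partner through which MYC represses genes, had a log2 fold change of 2.41. The lower ones were the deacetylase HDAC2 with -1.36, the histone chaperone RBBP4 with -1.32 and ARID4A with -1.06. RBBP4 was at 449 ± 7.66 CPM in control (SD, n = 2) and 180 ± 1.94 CPM in acidosis (SD, n = 3). SIN3A and SIN3B, the scaffolds that MXD proteins bind directly, did not pass, at 0.083 and 0.23 on the log2 scale, and are named after their values were seen.

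In the MGA complex PRC1.6, 3 of 14 were called higher and 1 lower, with a median of 0.20. KDM5C, a histone demethylase, rose by 1.47 on the log2 scale, CBX1, a heterochromatin protein, by 1.30 and RYBP, a Polycomb subunit, by 1.21. EHMT2, the methyltransferase G9a, fell by 1.25. At adjusted p alone 7 passed higher and 3 lower, a share near that of all tested genes. With total count scaling the list had 0 called higher and 3 lower.

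Genes that set the stability of MYC proteins had 4 of 24 called higher and 3 lower, with a median of -0.15. PIM1, a kinase that phosphorylates MYC, went from 22.0 ± 1.94 CPM in control (SD, n = 2) to 202 ± 20.8 CPM in acidosis (SD, n = 3), a log2 fold change of 3.20. USP36, a deubiquitinase of MYC, rose by 1.44 and SET, an inhibitor of the phosphatase PP2A, by 1.03. AURKA, the kinase known to shield MYCN protein from degradation, fell by 2.16 and was at 85.5 ± 0.759 CPM in control (SD, n = 2) and 19.3 ± 1.27 CPM in acidosis (SD, n = 3). PLK1, also known to stabilise MYCN, fell by 1.23 and the ubiquitin ligase subunit FBXO28 by 1.16. The count of higher genes was 2 without control replicate 2, and that of lower genes 5 without acidosis replicate 2. Total count scaling gave 1 higher and 7 lower.

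Of 58 genes listed as induced by MYC, acidosis had 17 called higher and 3 called lower, while 31 and 9 passed at adjusted p alone, a share near the 66.7% of all tested genes that passed. The median log2 fold change was 0.26. RRP12, a ribosome assembly factor, rose by 2.17, the cyclin CCND2 by 2.09 and the transferrin receptor TFRC by 2.08 on the log2 scale. SHMT1, of one-carbon metabolism, fell by 2.07, the glutamine transporter SLC1A5 by 1.89 and the ribosome assembly factor UTP20 by 1.32. The split depended on the scaling, with 8 called in each direction when libraries were scaled by total count only.

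Of 23 genes listed as repressed by MYC, 22 were tested, COL1A2 being too low. In acidosis 13 were called higher and 1 lower (11 and 3 with total count scaling), with a median of 1.54. KLF6 went from 49.9 ± 2.24 CPM in control (SD, n = 2) to 1842 ± 84.8 CPM in acidosis (SD, n = 3), GADD45A from 38.7 ± 5.51 to 955 ± 47.5 CPM and GADD45G from 1.78 ± 0.219 to 42.7 ± 1.76 CPM. These 3 are known as growth arrest or stress response genes as well as MYC targets. CEBPA, a differentiation factor, fell by 1.23. COL1A1 and COL1A2 of this list are also fibroblast markers above. Both target lists thus held genes called higher and genes called lower, and their relation to the rise of MYC was not tested.

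**Figure D4:**
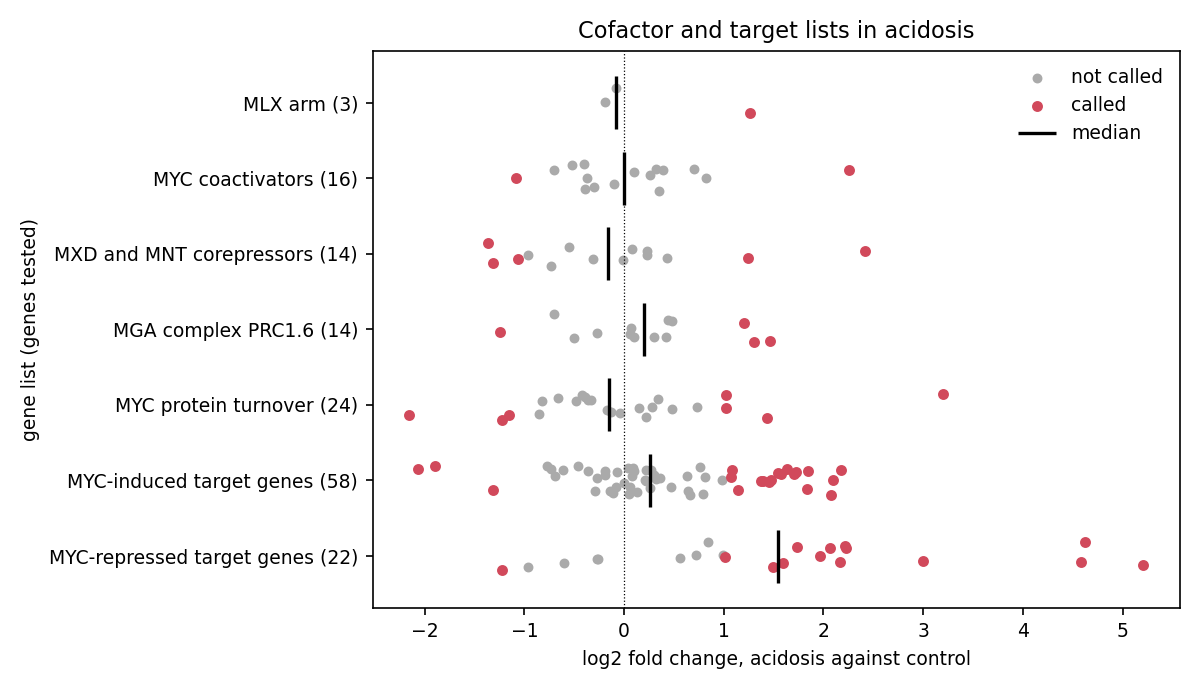
Log2 fold change in acidosis of each tested gene of the 7 lists, called genes in red, others in grey, with a black line at the list's median. The median lies at 1.54 for the MYC-repressed genes and between -0.16 and 0.26 for the other lists.

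With SRPIN340 edgeR called 0 of the 151 tested genes of the 7 lists, and 11 passed at adjusted p alone, beside 0.323% and 2.3% of all tested genes. They are named here after their values were seen. Lower were PAF1 among coactivators (-0.37), PLK1 (-0.47) and GSK3A (-0.37) among turnover genes, and NCL (-0.34), LDHA (-0.50), UTP20 (-0.55), ENO1 (-0.40) and PTMA (-0.29) among induced targets. Of the repressed targets NDRG1 (0.69) and NDRG4 (0.69) were higher and TXNIP (-0.95) was lower. All of these log2 fold changes were under 1 in size. Of the 9 that were lower with SRPIN340, 3 (PLK1, UTP20 and TXNIP) also passed lower in acidosis against the same control, and 6 (PAF1, GSK3A, NCL, LDHA, ENO1 and PTMA) passed higher there.

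**Figure D5:**
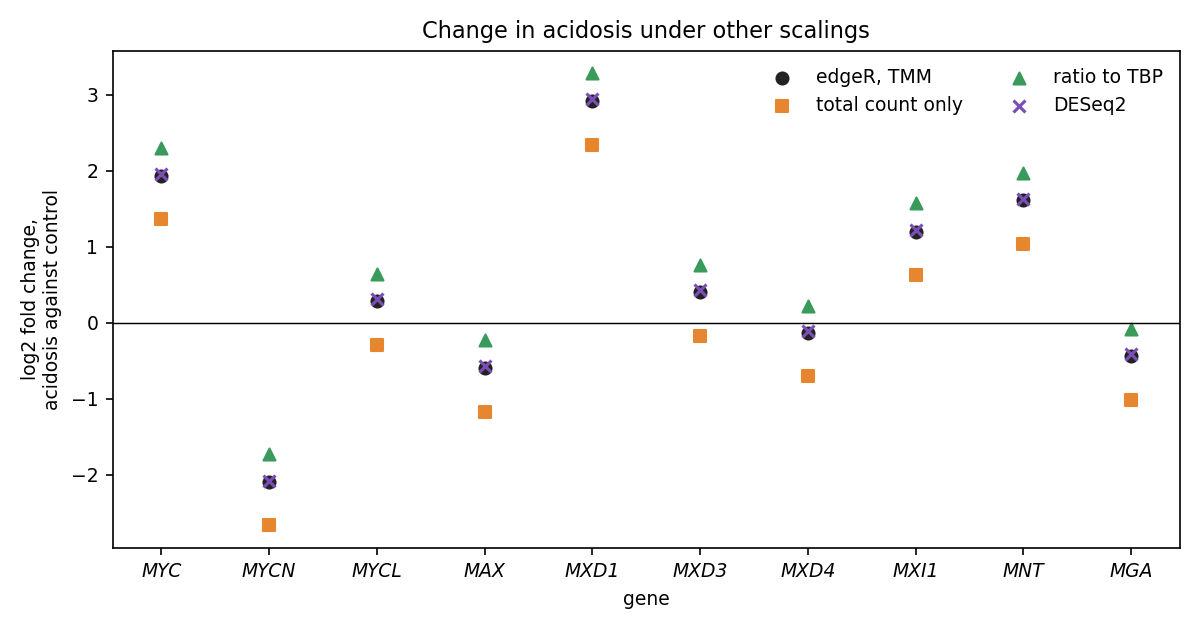
Log2 fold change of each network gene in acidosis against control from edgeR with TMM, from edgeR with total count scaling, relative to TBP, and from DESeq2. MYC, MXD1, MXI1 and MNT stay above 0 and MYCN below 0 under all of them, while MYCL, MXD3 and MXD4 change sign.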

How the data were processed

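Poly(A) RNA of HEK-293 cells was sequenced in 7 samples. Reads were trimmed with Trimmomatic 0.39 and Trim Galore 0.6.6 and quantified with Salmon 1.5.1 against a Gencode GRCh38.p13 transcriptome, and the authors deposited estimated counts per gene from tximport, whose option is not given in the sources used here. Under 1% of the values above 0 were whole to within 0.001, so a value is not a number of reads. The repeats are biological by the methods, with 1 column per sample.

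Estimated counts were rounded and fitted in edgeR 4.0.16 (R 4.3.3; TMM, filterByExpr, quasi-likelihood test, all 7 samples, group as factor) with Benjamini-Hochberg adjustment over 14863 genes. SE came from the test statistic. Scripts were tested on simulated data. Members and lists were chosen with earlier results of these data known. Named genes were the members, the 5 profiles nearest MYCN, and up to 3 called genes in each direction with the largest change per list. Alternatives were DESeq2 1.42.0, scaling, filters, samples in the fit, replicate block, fold limit, ratio to TBP, transcript length, and leaving out each replicate. Positions and lengths came from GENCODE release 44. A marker and a called list gene are not reported here by name.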

Additional observations from a re-analysis of the deposited data

How the results depend on the processing

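MYC, MYCN, MXD1, MXI1 and MNT kept direction and side of the adjusted p threshold in acidosis in every alternative that gave a value. Over all comparisons, 416 of 447 alternative values of single genes kept theirs, and 238 of 270 counts stayed within 1.5 times the count reported. With total count only, genes called higher were 0 for the MLX arm, 1 for corepressors, 0 for PRC1.6, 1 for turnover and 8 for induced targets, and called lower 3 for the network, 3 for coactivators, 6 for corepressors, 3 for PRC1.6, 7 for turnover, 8 for induced and 3 for repressed targets. MYCL was then -0.29 and MXD3 -0.17 in acidosis against control, and MXD3 -0.10 and MXD4 -0.25 against SRPIN340. Calls in acidosis were 43.0% higher with TMM and 13.5% with total count. Turnover genes called higher were 2 with no filter on low counts and 2 when 6 CPM on average was required in a compared group. That requirement dropped MYCN, so 0 network genes were called lower against control. Against SRPIN340 it left 3 network genes called beside 5 in the main fit, so MYCN was not the only call lost there. Of the genes called there in the main fit, MXI1 was nearest the fold limit, at 1.04 on the log2 scale. With no fold limit, higher and lower genes were 6 and 7 for coactivators, 4 and 6 for corepressors, 7 and 3 for PRC1.6, 8 and 10 for turnover and 31 and 9 for induced targets, and 3 were lower in the network and 3 among repressed targets. Relative to TBP, MXD4 was 0.22 in acidosis and MGA -0.015 with SRPIN340, and against SRPIN340 MYCL was 0.33 and MAX 0.11. Leaving out a replicate gave -0.43 to 0.030 for MXD4 in acidosis and, with SRPIN340, -0.0049 to 0.13 for MGA, -0.38 to 0.23 for MXD3, -0.20 to 0.052 for MXD1 and -0.37 to 0.071 for MNT. It gave 2 to 4 turnover genes higher, 3 to 5 lower, and 1 to 2 repressed targets lower. The activator share in control, SRPIN340 and acidosis was 6.64%, 7.61% and 9.32% without division by length and 9.78%, 11.7% and 12.1% with the longest transcript. The cause of these shifts was not tested.

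Samples with the same replicate number did not deviate together (r of -0.169 to 0.083). The replicate block moved the genes called from 4985 to 4858 in acidosis, from 48 to 27 with SRPIN340 and from 5148 to 5053 between them. Under the block 2 repressed targets were called lower, and MAX between acidosis and SRPIN340 had an adjusted p of 0.0559 in edgeR. Depth limits the fold of MYCN, at 10.4 to 12.6 counts a sample in acidosis.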
